A study of Drosophila pseudoobscura with 4 samples.

Results

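The microRNAs dps-mir-277, dps-mir-317 and dps-mir-34 of *Drosophila pseudoobscura* are the 3 members of a conserved cluster that has been tied, in *D. melanogaster*, to ageing and metabolism. They were taken by name from the count tables, and all 3 were found there, among 231 counted microRNAs. The data are small RNA libraries from 2 male and 2 female samples, with adults collected at 7 days from a wild stock held at 18 °C under a light phase of 12 h. The females were virgins, according to the study's methods, and the labels give no transgene, mutation or treatment for any group. Each sequencing run held 1 male and 1 female library. The labels do not name a tissue or say how many flies were pooled, and the study's text calls the samples of a sex biological replicates without saying how they were kept apart, so p-values measure the spread between these samples.

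MicroRNAs are short RNAs cut from a hairpin precursor and loaded into an Argonaute protein, where they pair with messenger RNAs and repress them. MicroRNAs of a cluster are often made from the same primary transcript, but their mature levels also depend on how each hairpin is processed and how long each product lasts. In *D. melanogaster*, mir-277 represses genes for the breakdown of branched-chain amino acids and affects lifespan, and part of its product is loaded into Ago2, the Argonaute mostly used by small interfering RNAs. There mir-34 increases in the adult and with age, and its loss shortens life and leads to brain degeneration, while mir-317 has been studied in immunity and in female responses to mating.

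The cluster lies on chromosome 2, Muller element E, of the assembly UCI_Dpse_MV25. The precursor of dps-mir-34 runs from 5315193 to 5315292, that of dps-mir-277 from 5316219 to 5316318 and that of dps-mir-317 from 5325657 to 5325746. Between dps-mir-34 and dps-mir-277 there are 926 bases, and between dps-mir-277 and dps-mir-317 there are 9338, so that the cluster spans 10.6 kb. No annotated gene span covers any of the 3 precursors. They lie between *Fmr1*, the ortholog of the fragile X gene, which ends at 5314240, 952 bases from dps-mir-34, and LOC6896908, which starts at 5328199. Another precursor annotated between dps-mir-277 and dps-mir-317, dps_117, was not analysed here. Positions are those of the study's annotation, and gene spans are from RefSeq, which here gives no exons.

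In the second and the first run, the male libraries held 67076 and 5697 reads, and the female libraries 42754 and 7111. Levels are given as reads, as a share of the microRNA reads of a library, or as CPM, which are counts scaled to a common library size with TMM factors that correct for composition. A level of 3 reads, used as the limit of detection, was 43.4 and 54.7 CPM in the male and female libraries of the second run, and 598 and 493 CPM in those of the first. Intervals cover counting error only, because reads without molecular identifiers are not independent molecules. The ovary microRNAs dps-mir-318 and dps-mir-994 together had 89.5 and 351 CPM on total counts in males, against 81185 and 47110 in females, and the testis markers found (2 of 6) had 149 and 176 in males (10 and 1 reads) and 0 in both female libraries, where up to 3 reads could have been missed, so the libraries match their labelled sex. The muscle marker found (1 of 2), dps-mir-133, had 2698 and 1053 CPM on total counts in males, against 1169 and 422 in females. The nervous system marker found (1 of 2), dps-mir-124, had 239 and 527 in males, against 234 and 141 in females. The other, dps-mir-210, was looked up by that exact name only. An entry named dps-mir-210a, left out of the marker sum, had 614 and 12 reads in males, against 209 and 9 in females. With TMM factors this was 8885 and 2391 CPM in males, against 3810 and 1479 in females. In males dps-mir-210a was thus higher in the second run. There the CPM of dps-mir-124 was higher in the first, but on only 3 reads, the limit of detection, against 16 in the second. In females dps-mir-124 was higher in the second run, on 10 reads against 1 in the first, which was below that limit. The part of these tissues in the levels of the cluster was not tested. In such bulk samples fewer cells of a type and less RNA per cell cannot be told apart.

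The cluster took a large part of every library, although with a different member composition in each. Its 3 microRNAs made up 8.09% of the reads of the male library in the second run (exact 95% Clopper-Pearson interval 7.89 to 8.30) and 15.4% in the first run (14.5 to 16.4). In the female libraries they made up 6.15% in the second run (5.93 to 6.39) and 10.8% in the first (10.1 to 11.5). Of the cluster's reads, dps-mir-277 gave 52.6% and 89.5% in males, against 35.9% and 76.8% in females, in the second and the first run. The contribution of dps-mir-317 was 37.7% and 10.03% in males, against 56.3% and 22.2% in females. That of dps-mir-34 was 9.78% and 0.456% in males, against 7.79% and 1.04% in females. Thus dps-mir-277 was the most abundant member in 3 of the 4 libraries and dps-mir-317 in the second-run female library, and dps-mir-34 was the least abundant in each. Each read is a whole small RNA, so the reads were not divided by length, and the annotated precursors are 100, 90 and 100 bases long for dps-mir-277, dps-mir-317 and dps-mir-34. Differences between sequences in how well they are captured in a library also enter such comparisons between microRNAs, and were not tested.

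**Figure D1:**
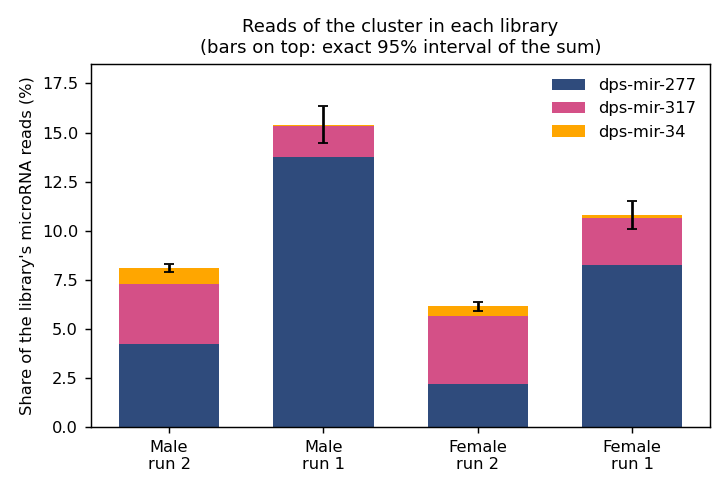
Share of the microRNA reads of each library (percent, stacked) taken by dps-mir-277, dps-mir-317 and dps-mir-34, for the male and female libraries of each run; the black bars are the exact 95% interval of the sum. The sum is 8.09% and 15.4% in males, against 6.15% and 10.8% in females. The larger part of this sum is dps-mir-277 in both libraries of the first run and in the male library of the second.

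The most abundant member, dps-mir-277, had 2853 and 785 reads in males, against 945 and 589 in females, in the second and the first run. In CPM, this was 41286 and 156395 in males, against 17227 and 96801 in females. By reads, its rank among the 231 microRNAs was 7 in the second-run male library and 3 in the first-run male library. In the female libraries its rank was 13 in the second run and 4 in the first. The level was higher in the male library than in the female library of the same run, but the libraries of both sexes overlapped, because the second-run male library was below the female library of the first. The order of the 4 libraries was first-run male, first-run female, second-run male and second-run female, and the 95% counting intervals of neighbours in this order did not overlap.

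Between sexes, dps-mir-277 averaged 98840 ± 81395 CPM in the male libraries and 57014 ± 56268 in the female libraries (SD, n = 2 each). Differential expression was tested with edgeR's quasi-likelihood test on the 84 microRNAs with a DESeq2 base mean (the mean count after scaling) of at least 1, with sequencing run and sex in the model, and calls required an FDR under 10% with a difference of 25% or over. The log2 fold change of dps-mir-277, male over female, was 0.98 (standard error 0.42, a 1.97-fold difference), with an adjusted p = 0.221 from edgeR, so it was not called. None of the 3 members was called between sexes, where 13.1% of the tested microRNAs were, and none had libraries that did not overlap between sexes, where 39.3% of those tested had. Within runs, the difference in log2 CPM was 1.26 in the second and 0.69 in the first. DESeq2, the study's method, called dps-mir-277 at a log2 fold change of 0.64 (adjusted p = 0.00194), and edgeR with total counts only called it at 0.84 (adjusted p = 0.000391). Without the first male library, in a fit with no run term because 3 libraries cannot hold both terms, the log2 fold change was -0.56. That fit sets the second-run male library against the female libraries of both runs, so the difference between runs enters it. Over the alternatives with all 4 libraries, the adjusted p went up to 0.901, in edgeR with no run term.

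Between runs the difference of the same microRNA was larger in log2 fold change. In the second run dps-mir-277 averaged 29256 ± 17013 CPM, and in the first 126598 ± 42140 (SD, n = 2 each), and the libraries of the runs did not overlap. As a share of its library, it was 4.25% and 2.21% in the male and female libraries of the second run, against 13.8% and 8.28% in those of the first. The log2 fold change, second over first run, was -2.20 (standard error 0.43, a 4.61-fold difference), the fourth lowest of the 84 (rank 4), and the edgeR test gave an adjusted p = 0.115. This fit called 1.19% of the microRNAs between runs and none of the 3 members, with 20 of the 84 at an unadjusted p under 0.05. The only microRNA called was dps_2613, named after its values were seen, with 28 and 15 reads in the male and female libraries of the second run and 13 and 13 in those of the first. Other settings called more between runs and also called dps-mir-277, which was called by DESeq2 (adjusted p = 5.52e-43), limma-voom (adjusted p = 0.0901), and edgeR with DESeq2's size factors (adjusted p = 7.29e-07) or total counts only (adjusted p = 5.24e-12). The second-run libraries were also the deeper ones of each sex, so that run and depth cannot be told apart.

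**Figure D2:**
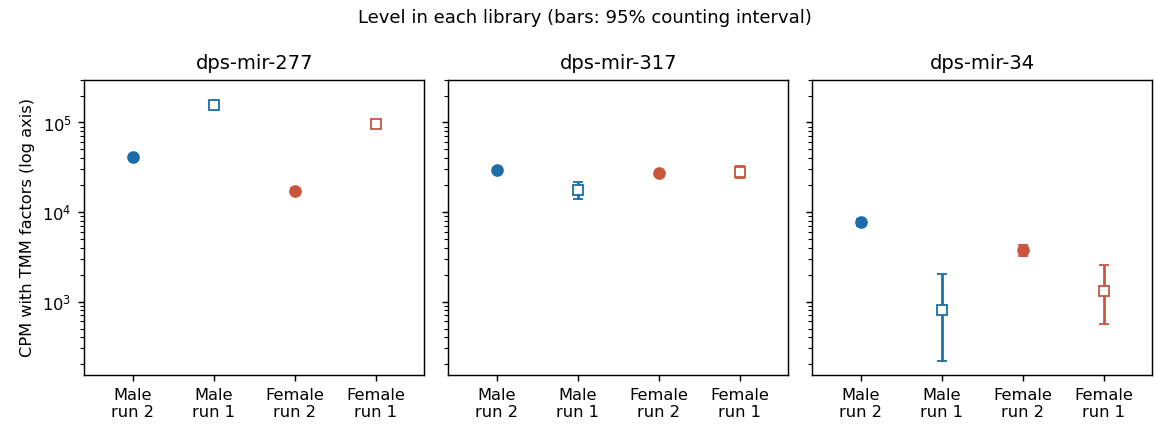
Level of each member in CPM with TMM factors (log axis) in the male and female libraries of each run, with 95% counting intervals; filled circles are the second run and open squares the first. The first-run libraries are the higher ones for dps-mir-277, at 156395 and 96801 CPM, and the lower ones for dps-mir-34, at 797 and 1315 CPM.

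The level of dps-mir-317 varied less between libraries, and its lowest and highest were 17532 and 29593 CPM. It had 2045 and 88 reads in males, against 1481 and 170 in females, in the second and the first run, which gave 29593 and 17532 CPM in males and 26997 and 27939 CPM in females. Its rank stayed between 8 and 9 in the 4 libraries. The male library of the first run was the lowest, and its counting interval (14061 to 21600 CPM) did not overlap those of the others, while the intervals of the other 3 libraries overlapped. Males averaged 23563 ± 8528 CPM and females 27468 ± 666 (SD, n = 2 each). The log2 fold change, male over female, was -0.25 (standard error 0.48; edgeR, adjusted p = 0.873), smaller than its standard error. As a share of its library, dps-mir-317 was lower in the male library of both runs, at 3.05% against 3.46% in the second run and 1.54% against 2.39% in the first, but with the TMM factors the difference in log2 CPM was 0.13 in the second run and -0.67 in the first, so its direction in the second run depends on the scaling.

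Between runs, dps-mir-317 averaged 28295 ± 1836 CPM in the second and 22736 ± 7359 in the first (SD, n = 2 each), and the libraries overlapped. The log2 fold change, second over first run, was 0.35 (standard error 0.48; edgeR, adjusted p = 0.699). With total counts only it was 0.76 and was called (adjusted p = 0.0766), and no other setting called it. Its change in log2 CPM was 0.75 in males and -0.05 in females, and in females the sign was negative with TMM and with DESeq2's size factors (-0.17) but positive with total counts (0.54).

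The third member, dps-mir-34, had 531 and 4 reads in males, against 205 and 8 in females, in the second and the first run. This gave 7684 and 797 CPM in males, against 3737 and 1315 CPM in females. Its rank was 16 and 39 in males and 23 and 34 in females. The libraries of the second run were above those of the first, and within the first run the counting intervals of the male library (217 to 2040 CPM) and of the female library (568 to 2591 CPM) overlapped. With 4 and 8 reads, a difference between the sexes was not detectable at the depth of the first run. Males averaged 4241 ± 4870 CPM and females 2526 ± 1713 (SD, n = 2 each). The log2 fold change, male over female, was 0.54 ± 0.58 (standard error; adjusted p = 0.667 from edgeR). The difference in log2 CPM was 1.03 in the second run and -0.68 in the first. Without the second male library the log2 fold change was -1.71, and without the first female library -0.33. These fits had no run term and left 1 sex with a single run, so the difference between runs enters them.

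Against the run, dps-mir-34 showed the opposite difference to dps-mir-277. It averaged 5711 ± 2791 CPM in the second run and 1056 ± 366 in the first (SD, n = 2 each), and its log2 fold change was 2.31 (standard error 0.62, a 4.95-fold difference, rank 9 of the 84 from the highest). In edgeR's quasi-likelihood test its adjusted p was 0.117, so that it was not called. DESeq2 called it (log2 fold change 2.09, adjusted p = 0.00379), and so did edgeR with DESeq2's size factors (adjusted p = 0.0299) and with total counts only (adjusted p = 0.000515), but not limma-voom (adjusted p = 0.104). The change in log2 CPM was 3.18 in males and 1.47 in females. Libraries of the runs did not overlap for 44% of the tested microRNAs, 26.2% with the second run higher and 17.9% with the first run higher. For the cluster they did not overlap for 2 of the 3 members, dps-mir-34 (second run higher) and dps-mir-277 (first run higher), a number that says little against this background.

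**Figure D3:**
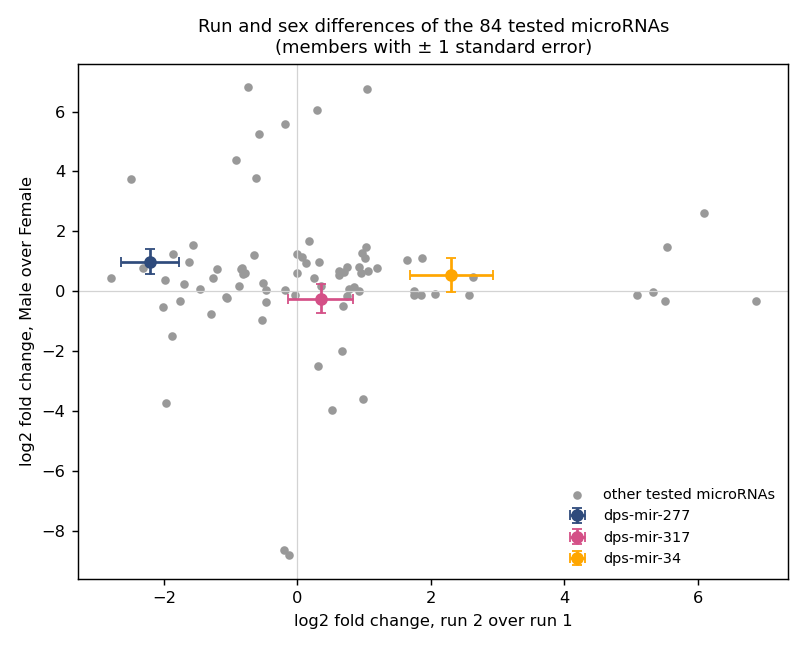
Log2 fold change of each of the 84 tested microRNAs between runs (second over first, horizontal axis) and between sexes (male over female, vertical axis), from edgeR; the members have bars of 1 standard error. The members lie at -2.20 (dps-mir-277), 0.35 (dps-mir-317) and 2.31 (dps-mir-34) on the run axis, and between -0.25 and 0.98 on the sex axis.

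The fold changes depend on the scaling through a shift shared by all microRNAs. The median log2 fold change between sexes over all microRNAs tested was 0.46 with TMM, 0.28 with total counts and 0.09 with DESeq2's size factors. Relative to this median, dps-mir-277 was at 0.51, 0.56 and 0.55 under these scalings, dps-mir-317 at -0.72, -0.68 and -0.69, and dps-mir-34 at 0.08, 0.06 and 0.08. Between runs the medians were 0.15, 0.50 and -0.09, and relative to them dps-mir-277 was at -2.36, -2.29 and -2.33. The corresponding values were 0.20, 0.26 and 0.22 for dps-mir-317, and 2.16, 2.22 and 2.18 for dps-mir-34. The position of each member among the microRNAs thus moved by less than 0.1 between these scalings, which follows from the shared shift. Over 9 settings that also changed the method, filter or model, the values between runs relative to the median moved more. They went from -3.17 to -2.03 for dps-mir-277, from -0.62 to 0.45 for dps-mir-317 and from 1.34 to 2.43 for dps-mir-34.

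Ratios of members within a library do not depend on the scaling. Of the reads of dps-mir-277 and dps-mir-317 together, dps-mir-277 gave 58.2% (exact 95% interval 56.9 to 59.6) in the male library and 39.0% (37.0 to 40.9) in the second-run female library. In the first run it gave 89.9% (87.7 to 91.8) in the male library and 77.6% (74.5 to 80.5) in the female library. The share was higher in the male library of each run, and higher in the first run in each sex. The mean log2 ratio of dps-mir-277 to dps-mir-317 was 1.82 ± 1.89 in males and 0.57 ± 1.73 in females (SD, n = 2 per sex), a difference of 1.246 (exact permutation test over the 4 libraries, two-sided, p = 0.667, where the smallest p this design allows is 0.333). The spread in that test includes the difference between runs. Within runs, male minus female was 1.13 in the second and 1.36 in the first, the same sign in both, and with signs permuted within runs the exact p was 0.5, the smallest that 2 pairs can give. Between runs the mean log2 ratio was -0.08 ± 0.80 in the second and 2.47 ± 0.96 in the first, a difference of -2.56, with no overlap (exact permutation p = 0.333, the smallest possible). Without the first male library the difference between sexes was -0.09. This sets the second-run male library against the female libraries of both runs, so the difference between runs enters it.

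**Figure D4:**
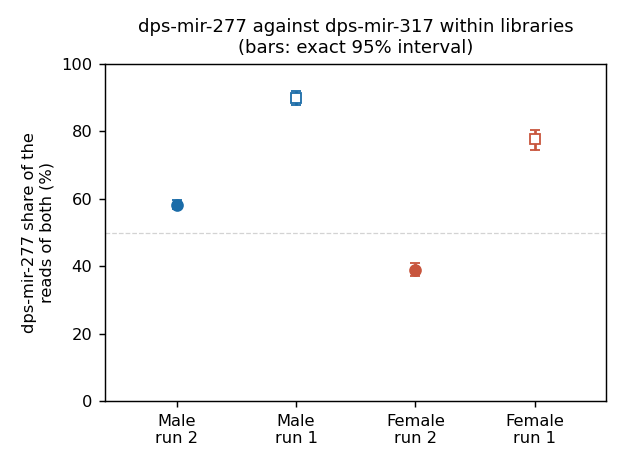
Share of dps-mir-277 in the summed reads of dps-mir-277 and dps-mir-317 (percent) in the male and female libraries of each run, with exact 95% intervals; filled circles are the second run, open squares the first, and the dashed line marks equal reads. The share is 58.2% and 89.9% in males, against 39.0% and 77.6% in females.

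Compared library by library, the ratio of dps-mir-277 to dps-mir-317 was 2.19 times as high in the male as in the second-run female library (95% interval of the odds ratio 1.98 to 2.42), and 2.57 times in the first run (1.93 to 3.44). With reads taken as independent, both differences exceed counting error (Fisher's exact test, adjusted p = 3.45e-54 and 1.80e-11 over 12 comparisons of members between libraries). These tests compare the reads of 2 libraries and not the sexes. The similar size in both runs is a description of 2 pairs of libraries. The ratio of dps-mir-277 to dps-mir-34 was 1.17 times as high in the male as in the second-run female library (0.971 to 1.40, Fisher's exact adjusted p = 0.115) and 2.66 times in the first (0.710 to 12.1, adjusted p = 0.154), so no difference beyond counting error was found in either run, although the interval of the first is wide. For dps-mir-317 against dps-mir-34 the odds ratio was 0.533 in the second run (0.445 to 0.636, Fisher's exact adjusted p = 8.92e-13) and 1.04 in the first (0.268 to 4.83).

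Between the runs of each sex, all 3 ratios of members were lower in the second. The odds ratio of dps-mir-277 to dps-mir-317, second over first run, was 0.156 in males (95% interval 0.123 to 0.197) and 0.184 in females (0.152 to 0.223). For dps-mir-277 to dps-mir-34 it was 0.0274 in males (0.00741 to 0.0709) and 0.0627 in females (0.0265 to 0.127). For dps-mir-317 to dps-mir-34 it was 0.175 in males (0.0465 to 0.468) and 0.340 in females (0.142 to 0.700). The highest adjusted p of these 6 comparisons was 0.00156 (Fisher's exact test). Thus in each sex the cluster had more dps-mir-277 relative to its neighbours in the first run, and more dps-mir-34 in the second.

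Likeness of pattern was measured as the Euclidean distance between log2 CPM values centred on their own mean, over the 4 libraries, among the 52 microRNAs whose base mean was 10 or more. The nearest to dps-mir-277 were dps-mir-987 (distance 0.67), dps_2613 (0.75) and dps-mir-970 (0.76), whose log2 fold changes between runs were -1.62, -2.80 and -1.98. The nearest to dps-mir-34 were dps-mir-278 (0.46), dps-mir-305 (0.57) and dps-mir-31a (0.60), with 2.62, 2.06 and 2.57 between runs. The nearest to dps-mir-317 were dps-mir-958 (0.43), dps-mir-33 (0.55) and dps-bantam (0.61), with -0.04, 0.77 and -0.18. Among the 51 other microRNAs, dps-mir-34 was the 43rd nearest to its genomic neighbour dps-mir-277 (distance 4.63) and dps-mir-317 the 21st (2.84). To dps-mir-34, dps-mir-317 was the 19th nearest (2.07) and dps-mir-277 the 47th. To dps-mir-317, dps-mir-34 was the 35th nearest and dps-mir-277 the 45th. With 4 libraries these distances mostly follow the differences between runs. Some rest on few reads in the male and female libraries of the first run. These were 4 and 8 for dps-mir-34, 1 and 3 for dps-mir-278, and 3 and 5 for dps-mir-958.

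Other microRNAs that in *D. melanogaster* have been tied to ageing, insulin signalling or metabolism were taken as a list of 10, of which 9 could be tested. The remaining one, dps-mir-100 of the let-7 complex, had 1 and 0 reads in males, against 1 and 0 in females. None of the 9 was called between sexes, where 13.1% of all tested were, or between runs, where 1.19% were, so that no calls among 9 says nothing about the list. Their median log2 fold change between sexes was 0.28, against 0.46 for all 84 tested, and 7 of the 9 had positive values, against 57 of the 84. Between runs their median was 0.74, against 0.15 for all tested, and they ranged from -0.78 to 2.62.

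The developmental timing microRNA dps-let-7 had 4153 and 3785 CPM in males, against 2151 and 1972 CPM in females, in the second and the first run. Its male libraries were above its female libraries, where 39.3% of all tested had no overlap between sexes, in either direction. The log2 fold change of dps-let-7 was 0.94 (standard error 0.38, edgeR adjusted p = 0.215). This was close to that of dps-mir-277, whose libraries overlapped between sexes. The cluster partner of dps-let-7, dps-mir-125, had 955 and 398 CPM in males, against 583 and 329 in females, with only 2 and 2 reads in the first run. For dps-mir-14, which limits fat storage and acts in insulin-producing cells, the values were 58101 and 85270 CPM in males, against 32357 and 65246 CPM in females. For dps-mir-8, which promotes growth through insulin signalling in the fat body, they were 303110 and 343271 in males, against 198078 and 355977 in females. The lipid regulator dps-mir-33 had 17944 and 8567 CPM in males, against 14055 and 10025 CPM in females. The log2 fold changes between sexes of dps-mir-125, dps-mir-14, dps-mir-8 and dps-mir-33 were 0.66, 0.62, 0.28 and 0.09.

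Both second-run libraries were above both first-run libraries for 4 of the 9, dps-mir-125, dps-mir-33, dps-mir-278 and dps-mir-305, against 26.2% of all tested, and both were below for 2, dps-mir-8 and dps-mir-14, against 17.9%. For dps-mir-125 this order is uncertain, since its 2 and 2 reads in the first run were below the limit of 3 reads. Its second-run female level, 583 CPM, was also below that limit in the first-run male library, 598 CPM. The 2 with the largest log2 fold change between runs were dps-mir-278 and dps-mir-305. The energy balance regulator dps-mir-278 had 2909 and 199 CPM in males, against 1732 and 493 CPM in females, with only 1 and 3 reads in the first run, and a log2 fold change between runs of 2.62 (standard error 0.59; edgeR, adjusted p = 0.115). For dps-mir-305, which acts in intestinal stem cells through the insulin pathway, the levels were 15426 and 2590 CPM in males, against 12542 and 4109 CPM in females, and the log2 fold change between runs was 2.06 (standard error 0.54; edgeR, adjusted p = 0.117). The remaining list members were the growth microRNA dps-bantam, with log2 fold changes of 0.03 between sexes and -0.18 between runs, and dps-mir-282, with 21 and 0 reads in males, against 16 and 2 in females. No list member had a fold change between runs as low as that of dps-mir-277.

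**Figure D5:**
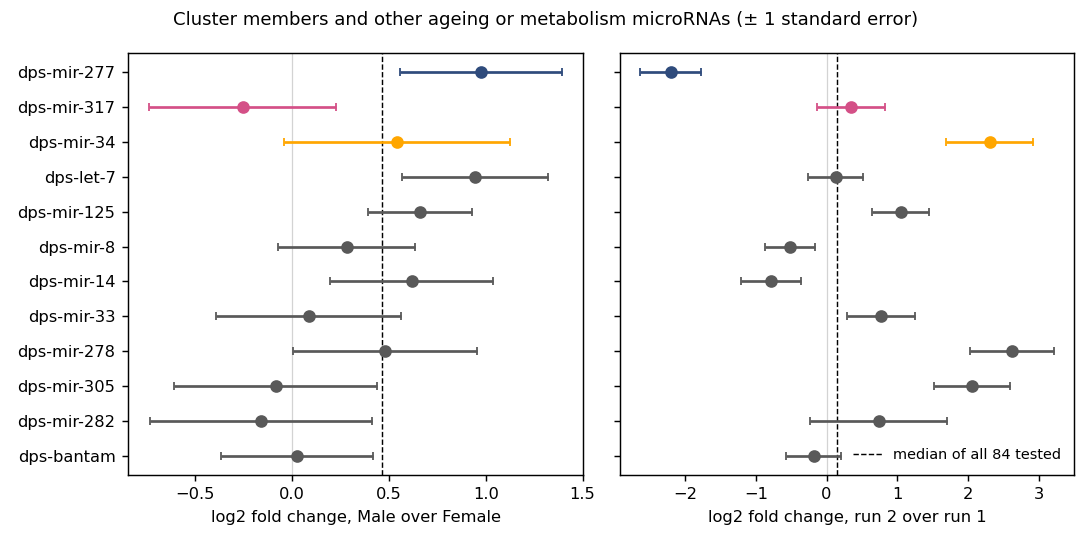
Log2 fold changes with 1 standard error, from edgeR, of the 3 cluster members (coloured) and the 9 tested microRNAs of the list (grey), for male over female (left) and second over first run (right); the dashed line is the median of the 84 tested. Between sexes the list runs from -0.16 to 0.94, and between runs from -0.78 to 2.62, with dps-mir-277 at -2.20 outside that range.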

How the data were processed

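Small RNA was sequenced from 2 samples of males and 2 of females. The authors deposited raw read counts per microRNA precursor, made by trimming with Cutadapt 1.18, mapping with HISAT2 2.2.1 and counting with featureCounts 2.0.2 on miRBase 21 and further annotated microRNAs, after leaving out those that map identically to several regions. Precursor counts do not separate the arms of a hairpin. A line that names no microRNA (1 per table, with no reads) was left out. Depth was 5697 to 67076 reads per library.

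The quasi-likelihood test of edgeR 4.0.16 with TMM normalization, in R 4.3.3, covered the 84 microRNAs whose base mean in DESeq2 was at least 1, with run and sex in the model as in the study. DESeq2 1.42.0 (local fit) and limma 3.58.1 (voom) were alternatives, with other scalings, filters, models and leaving out each library. Log2 CPM used a prior count of 2. Standard errors are the absolute log2 fold change over the square root of F. Benjamini-Hochberg adjustment covered all tested microRNAs. Ratios were compared with exact tests in Python with scipy 1.17.1. The edgeR test of sex with TMM factors, and no other fit, was tried on simulated data.

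A sample's replicate number stood for its run, from the study's statement on paired runs. The male and female changes between runs had a Pearson r of 0.567 across the 84 microRNAs, which are not independent.

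Named microRNAs were the members, a list tied to ageing, insulin signalling or metabolism, and the 3 nearest in pattern to each member. Members and lists were chosen with earlier results of these data known.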

Additional observations from a re-analysis of the deposited data

Results flagged for a closer look

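With TMM factors, the difference between sexes had opposite signs in the 2 runs for 2 members. For dps-mir-317, male minus female log2 CPM was 0.13 in the second run and -0.67 in the first. With other scalings it was negative in both runs, at -0.18 and -0.63 with total counts and -0.31 and -0.92 with DESeq2's size factors. For dps-mir-34 male minus female log2 CPM was 1.03 in the second run and -0.68 in the first, where the libraries had 4 and 8 reads. Its signs were also opposite with total counts (0.72 and -0.68) and with DESeq2's size factors (0.60 and -0.97). The difference between runs had opposite signs in the sexes for dps-mir-317 with TMM factors, with 0.75 in males and -0.049 in females. The signs were also opposite with DESeq2's size factors, at 0.43 and -0.17. With total counts the difference was positive in both sexes, at 0.98 and 0.54. These differences between runs and between sexes were not tested, since each rests on 1 library per sex and run.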

How the results depend on the processing

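Each member's sex and run differences were recomputed under every alternative, and those of dps-mir-34, its ratios and the TMM factors from expression-filtered microRNAs were added after seeing the data. Between sexes 11 microRNAs were called, against 17 with DESeq2, 6 with limma-voom and 2, 6, 6 and 3 without the first and second male and the first and second female library. These fits, and those given below without a library, had no run term (or run alone). The lone library of a sex or run is there assumed to vary like the others. With no replicate block 9 were called, and dps-mir-277 had 0.80 (edgeR adjusted p = 0.901), dps-mir-317 -0.22 and dps-mir-34 0.76, with no member's call changed. Between runs 1 was called, against 22 with DESeq2, 11 with limma-voom, 21 with DESeq2's size factors, 34 with total counts only (27 higher in the second run), 20 with edgeR's expression filter, 20 with TMM factors from the microRNAs it keeps, 0 with run alone and 0, 5, 0 and 4 without those libraries. The sex difference of dps-mir-277 was called with DESeq2 (0.64) and total counts only (0.84), and ran from -0.56 (without the first male library) to 1.84 over the libraries left out. That of dps-mir-34 ran from -1.71 (without the second male library) to 1.75, with -0.33 without the first female library, and was -0.68 within the first run. The sex difference of dps-mir-317 was negative in every alternative except within the second run (0.13). The run difference of dps-mir-277 was negative in all 14 alternatives, and was called with limma-voom (-2.17), DESeq2 (-2.42), its size factors in edgeR (-2.43), total counts only (-1.80), edgeR's expression filter (-2.06), TMM factors from the filtered microRNAs (-2.06), and without the second male (-2.88) or the second female library (-1.62). The run difference of dps-mir-34 was positive in all 14, and was called with DESeq2 (2.09), DESeq2's size factors (2.09), total counts only (2.72), edgeR's expression filter (2.46) and TMM factors from the filtered microRNAs (2.45). That of dps-mir-317 was called with total counts only (0.76). Over the libraries left out, the sex difference in log2 ratio ran from -0.092 to 2.58 for dps-mir-277 to dps-mir-317, from -1.78 to 3.41 for dps-mir-277 to dps-mir-34 and from -1.69 to 0.83 for dps-mir-317 to dps-mir-34, the lowest without the first male library and the highest without the second. With the replicate block (signs permuted within runs) the first of these had an exact p = 0.5, the smallest possible. With a library left out, 1 sex is represented by 1 run only, and 1 run by 1 sex only, so sex and run differences are mixed in those values. The cause of the other changes was not tested. The first-run libraries, with 4 and 8 reads of dps-mir-34, limit the precision of its values.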
